A study of Arabidopsis thaliana with 6 samples.

Results

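Metallothioneins are short, cysteine-rich proteins that hold copper, zinc and other metal ions through the sulfur of their cysteines. In Arabidopsis thaliana they fall into types that differ in where the cysteines lie. Types 1 and 2 are known mainly from roots, the vasculature and other tissues of the growing plant, type 3 from leaf mesophyll, and type 4 from seeds. They are known for buffering copper and zinc, for moving copper out of ageing leaves, and for thiols that react readily with oxidants. The genes described here were the 5 loci of types 1 to 3 taken from the array table by locus name, namely MT1A (AT1G07600), MT1C (AT1G07610), MT2A (AT3G09390), MT2B (AT5G02380) and MT3 (AT3G15353). All 5 were present among the 21430 probe sets, with 1 probe set each.

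The plants were wild type Columbia-0 seedlings in liquid medium, which at 7 days of age received the oxidant hydrogen peroxide (H2O2) at 10 mM or an equal volume of water (mock), and were collected 24 h later. Each group had 3 arrays, and each array a pool of 4 to 5 plants. Levels are log2 values after GCRMA, the authors' background correction and normalization, so that 1 unit is a 2-fold difference within a gene. Precision is limited by having 3 arrays a group, which the reported tests treated as unpaired. Nothing in the labels says that the replicates were separate cultures, so the p-values reflect the spread among these pools alone, which may be technical.

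The tissue is labelled leaf, but the source and stage are labelled seedling. Of 8 leaf marker genes 4 were measured, with mock means from 10.11 for the glycine decarboxylase gene GLDP1 to 12.81 for the rubisco activase gene RCA. All 8 root marker genes were measured too, with a mock mean of 12.02 for PYK10, a beta-glucosidase gene of roots, and 3.95 for MRN1. Transcripts of genes known from roots were thus measured along with those of leaves. Array medians lay between 5.66 and 5.74, and arrays correlated at 0.995 to 0.997 with others of their group and at 0.951 to 0.958 across groups (over probe sets, which are not replicates).

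After H2O2 the transcripts of the type 2 and type 3 metallothioneins were higher and those of the type 1 genes did not pass the test. MT3 rose 1.73-fold, MT2A 1.41-fold and MT2B 1.36-fold, each on all 3 treated arrays. MT1A and MT1C differed by 1.08-fold and 1.05-fold. Of the 5 genes, 3 were thus called higher and 0 lower, where 23.9% of all 15001 probe sets tested were called higher, 36.5% lower and 60.4% either way (limma, Benjamini-Hochberg adjusted p under 0.05). The median log2 change of the 5 was 0.44, beside -0.10 over all probe sets tested.

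MT3 was at 10.38, 10.48 and 10.51 on the mock arrays and at 11.30, 11.32 and 11.12 on the H2O2 arrays. All treated arrays lay above all mock arrays, with a gap of 0.61 between the groups. The log2 change was 0.79 (SE 0.08, 95% interval 0.60 to 0.98, adjusted p = 8.49e-05 in limma). Larger increases were found for 9.89% of the probe sets tested.

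MT2A, which encodes a metallothionein known to bind copper and zinc, was at 11.33, 11.44 and 11.54 in mock and at 11.88, 12.03 and 11.89 in H2O2. The groups did not overlap, and the gap was 0.34. Its log2 change was 0.50 (SE 0.09, 95% interval 0.30 to 0.69, limma adjusted p = 0.00129).

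MT2B, its closest relative in the family, was at 12.69, 12.67 and 12.62 in mock and at 13.06, 13.15 and 13.09 in H2O2. This was the tightest of the 5 genes within groups, with a residual SD of 0.04 beside a median of 0.11 over the probe sets tested. The log2 change was 0.44 (SE 0.07, 95% interval 0.28 to 0.60, limma adjusted p = 0.000861), and the groups lay 0.37 apart.

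MT1A was at 13.09, 13.04 and 12.90 in mock and at 13.14, 13.11 and 13.13 in H2O2. The treated arrays all lay above the mock arrays, but by a gap of only 0.02. The log2 change of 0.12 (SE 0.08) did not pass (limma adjusted p = 0.226). Its 95% interval, -0.06 to 0.29, reaches up to a 1.23-fold increase. Scaling to 8 reference genes shifted the median change of all probe sets by 0.17. With that scaling the change of MT1A was 0.29 and passed (limma adjusted p = 0.0216). Under quantile normalization it was -0.029 (limma adjusted p = 0.731). Quantile normalization gives each rank the same value on every array, and MT1A was at rank 1 or 2 on each. Its value there follows from rank alone and cannot show whether its level rose.

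MT1C was at 11.00, 10.86 and 10.68 in mock and at 10.78, 11.00 and 10.97 in H2O2. Here the groups overlapped. The log2 change was 0.07 (SE 0.10, limma adjusted p = 0.573), and the 95% interval of -0.17 to 0.31 allows a fall to 0.890-fold or a rise to 1.24-fold. Without mock replicate 3, which had the lowest value, the change was -0.011. In all, 4 of the 5 genes had groups that did not overlap, beside 67.2% of the probe sets tested (26.6% with H2O2 above mock, the direction of all 4).

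**Figure D1:**
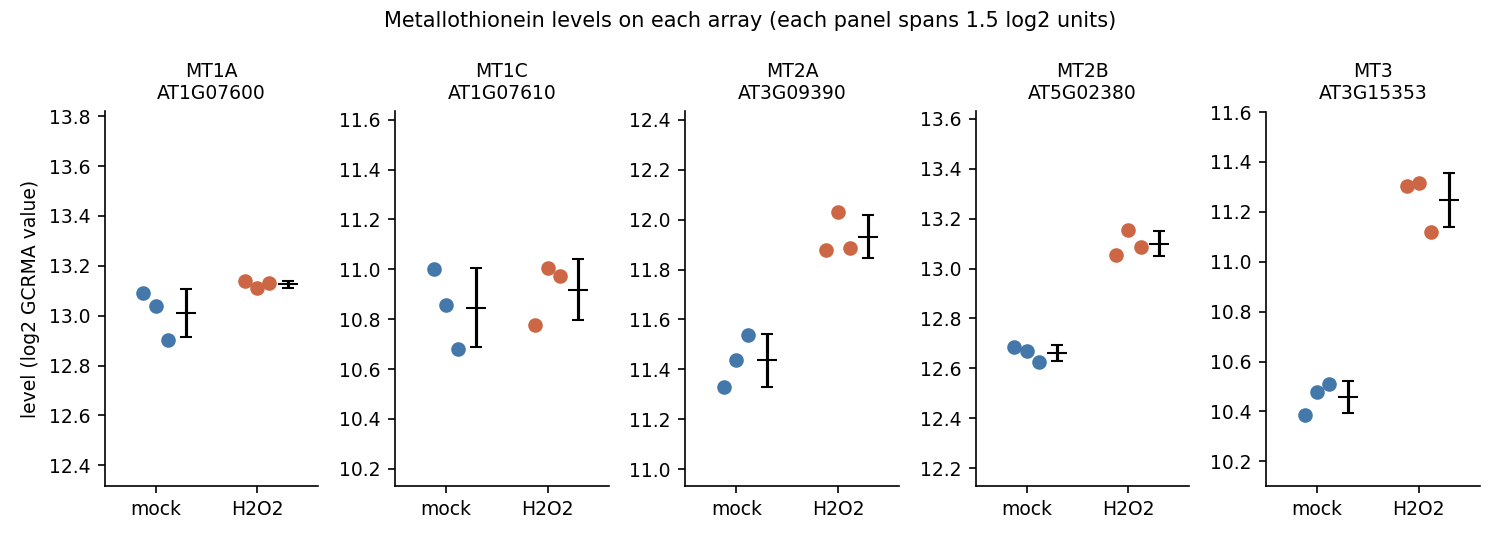
Level of each metallothionein on the 6 arrays (log2 GCRMA value; points, 3 mock and 3 H2O2 arrays; bar and whiskers, mean ± SD, n = 3). Each panel spans the same range of 1.5 log2 units around its own gene; MT2A, MT2B and MT3 are clearly parted, MT1A by 0.02 and MT1C not at all.

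Metallothionein transcripts were among the brightest on the arrays. MT1A had the highest value of all 21430 probe sets on each mock array and on 2 of the 3 H2O2 arrays. MT2B ranked 8 to 10 in mock and reached rank 1 or 2 in H2O2, so that on H2O2 replicate 2 it passed MT1A. MT2A ranked 143 to 203 in mock and 47 to 65 in H2O2. MT3 ranked 483 to 547 in mock and 166 to 215 in H2O2. MT1C stayed between 257 and 410 on all arrays. A rank describes how near a probe set is to the top of the measured range and does not compare transcript amounts between genes. For a probe set at the top of every array a rise may be understated, and the part of this limit in the small change of MT1A was not tested. The SD of MT1A was 0.10 in mock and 0.01 in H2O2.

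At this brightness increases were less common than over the whole table. The cut was 10.85, the mean of MT3 over the mock and H2O2 arrays together and the lowest of the 5. Of the 293 probe sets at or above it, 12.3% were called higher and 53.2% lower, and the median log2 change was -0.23. Only 8 of these 293 had a larger increase than MT3, 15 a larger one than MT2A and 18 a larger one than MT2B. These counts include the family itself, so MT3 is among the 15, and MT3 and MT2A are among the 18.

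**Figure D2:**
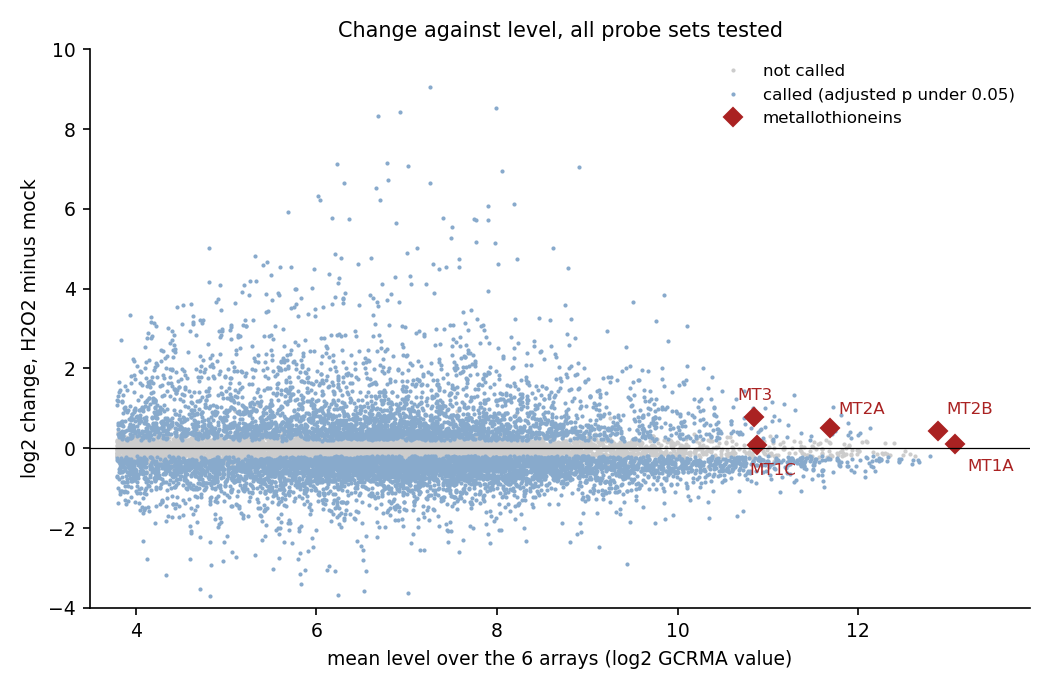
Log2 change (H2O2 minus mock) against mean level over the 6 arrays (log2 GCRMA value) for the 15001 probe sets tested, grey where not called and blue where called. The metallothioneins (red diamonds) lie at the bright end, with MT3, MT2A and MT2B above most probe sets of like level.

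Whether members changed by different amounts was asked by taking, on each array, the difference between the log2 values of a pair of genes. Of 10 pairs, 8 had values in H2O2 that did not overlap those in mock. They gave the smallest p that an exact two-sided permutation test allows with 3 against 3 unpaired arrays, 0.10 (0.125 adjusted over the 10 pairs). This test thus cannot pass for any pair. In a limma fit of the same differences beside all probe sets, chosen after seeing the data, the same 8 pairs passed, with p adjusted over the 10 pairs of 0.00147 to 0.0141. Limma steadies each variance with those of all rows fitted, and nearly all rows were single probe sets, not differences. For pairs of wide spread these p-values may therefore be too low. The pairs share genes and are not independent of each other. Pairs with MT1A carry the limit of its place at the top of the arrays. So may pairs with MT2B, which ranked 1 or 2 on the H2O2 arrays.

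MT3 had the largest change of the 5. It exceeded that of MT2A by 0.29 (SE 0.06), since the MT2A minus MT3 difference was 0.94 to 1.03 on the mock arrays and 0.57 to 0.76 on the H2O2 arrays. The MT2B minus MT3 difference of changes was -0.35 (SE 0.08), and the MT1A minus MT3 and MT1C minus MT3 differences were -0.67 (SE 0.11) and -0.72 (SE 0.17).

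The pairs of the same type were the ones that did not part. The changes of MT2A and MT2B differed by 0.06 (SE 0.08, exact permutation p = 0.60), and those of MT1A and MT1C by 0.04 (SE 0.09, exact permutation p = 0.80). Limma's 95% intervals of these differences were -0.14 to 0.26 and -0.16 to 0.25, so the pairs are not shown to act alike. Between types, MT1A changed by 0.32 less than MT2B (SE 0.05) and by 0.38 less than MT2A (SE 0.13). MT1C changed by 0.37 less than MT2B (SE 0.09) and by 0.42 less than MT2A (SE 0.16).

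The pairs also varied unevenly within the mock group. Mock replicate 3 had the lowest value of MT1A, MT1C and MT2B and the highest of MT2A and MT3. The MT2A minus MT3 difference had an SD of 0.05 over the mock arrays, while the SDs of MT2A and MT3 themselves were 0.10 and 0.06. The MT1C minus MT2A difference had an SD of 0.26.

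**Figure D3:**
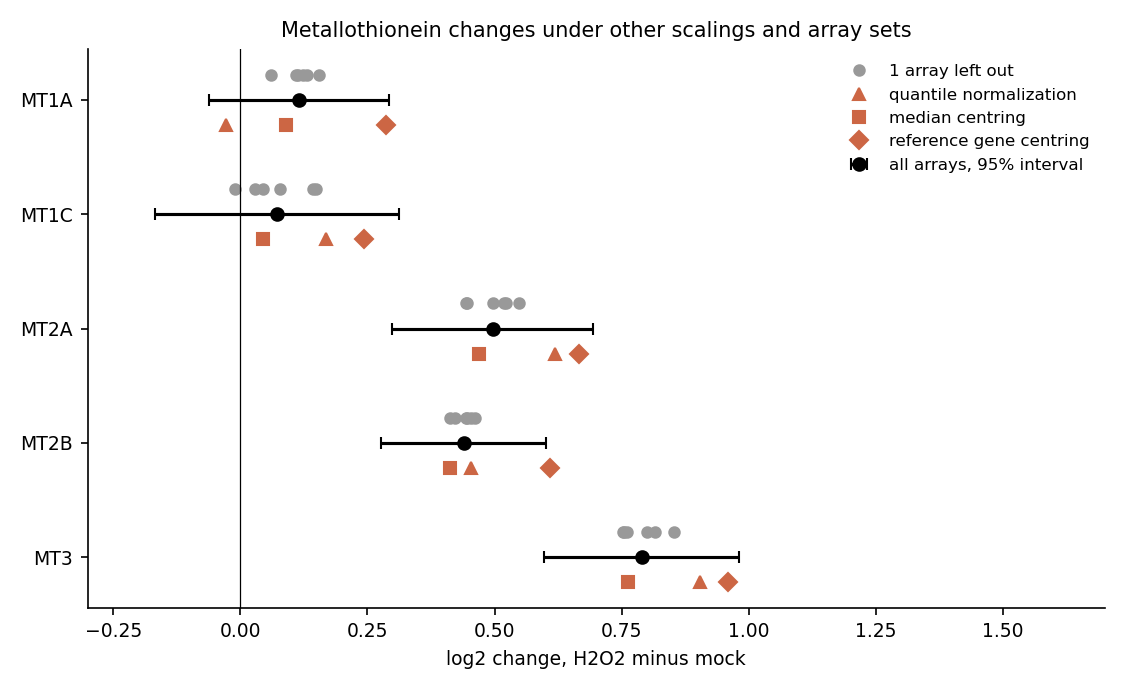
Log2 change of each metallothionein (H2O2 minus mock) from all 6 arrays (black, with limma's 95% interval), with 1 array left out (grey) and under 3 other scalings (orange). The points of MT2A, MT2B and MT3 stay above 0.41, while those of MT1A and MT1C lie between -0.029 and 0.29. The quantile normalization point of MT1A follows from its rank alone.

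MT1A and MT1C are next to each other among the protein-coding genes of chromosome 1, with a lncRNA gene between them in RefSeq (assembly TAIR10.1, used for names and order only). They encode closely similar proteins, and as the probe definition is not given in the sources used here, signal from one in the other's probe set cannot be told apart. No metallothionein had values identical to another locus. The span of MT1A lies over that of the protein-coding gene AT1G07590, whose level was 5.08 ± 0.10 in mock and 5.13 ± 0.12 in H2O2 (SD, n = 3 each). The neighbour on the other side of MT1C, AT1G07615, was lower by 0.35 (limma adjusted p = 0.00706).

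MT3 overlaps COX17 (AT3G15352), which encodes a small copper carrier that supplies cytochrome c oxidase in mitochondria. COX17 was at 6.52, 6.69 and 6.52 in mock and at 7.46, 7.72 and 7.75 in H2O2. All treated values were above all mock values, and COX17 rose 2.09-fold (log2 change 1.06, SE 0.10, limma adjusted p = 4.30e-05). Whether the probe sets of COX17 and MT3 share the overlapping stretch is not known here, and its part in either rise was not tested. UBC25 (AT3G15355), a ubiquitin-conjugating enzyme gene on the other side of MT3, rose by 0.29 (limma adjusted p = 0.0471) with groups parted by 0.0073. Its mock mean of 3.98 was near 3.79, the level under which probe sets were left out as low. The measured neighbour of MT2B, AT5G02370, had a change of 0.13 and did not pass (limma adjusted p = 0.293), and the neighbours of MT2A were not analysed here.

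Of the remaining family genes, the seed type genes MT4A (AT2G42000) and MT4B (AT2G23240) lay below the level of 3.79 under which probe sets were left out as low. MT4A was at 3.43 ± 0.07 in mock and 3.45 ± 0.15 in H2O2, and MT4B at 3.36 ± 0.23 and 3.31 ± 0.12 (SD, n = 3 each). Both overlapped between groups. MT1B (AT5G56795) was not analysed here.

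The other thiol-based route of metal binding in plants runs through glutathione and phytochelatins, peptides that are made from glutathione and carried into the vacuole with their metals. Of 8 listed genes 7 were measured and 6 passed the filter on low values, of which 4 rose and 0 fell. Over all probe sets tested 60.4% were called and 23.9% called higher. PCS1 (AT5G44070), the phytochelatin synthase gene, was at 7.77, 7.79 and 7.89 in mock and at 9.16, 9.13 and 9.18 in H2O2, a 2.53-fold rise (limma adjusted p = 1.58e-06). ABCC2 (AT2G34660), a vacuolar transporter of phytochelatin complexes, rose 3.63-fold (log2 change 1.86, SE 0.08), and ABCC1 (AT1G30400), its relative, 1.33-fold. GSH1 (AT4G23100), which catalyses the first step of glutathione synthesis, rose 1.68-fold. The median log2 change of the 6 genes was 0.58. The measured gene that did not pass the filter, PCS2 (AT1G03980), was at 3.30 in mock and 3.17 in H2O2.

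Among genes of copper handling more were lower than higher, as over the whole table. Of 25 listed genes, 21 were measured and 20 passed the filter, with 5 called higher, 11 lower and 4 neither, beside 23.9% higher and 36.5% lower over all probe sets tested. Their median log2 change was -0.30. The largest decrease was that of CCS (AT1G12520), which encodes the chaperone that loads copper into superoxide dismutase. It was at 8.23, 8.36 and 8.35 in mock and at 6.63, 7.02 and 6.74 in H2O2, 2.86-fold lower (limma adjusted p = 7.98e-06). Its client genes CSD2 (AT2G28190), for the copper/zinc dismutase of plastids, and CSD1 (AT1G08830), for that of the cytosol, were 2.41-fold and 2.20-fold lower.

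HMA5 (AT1G63440), which encodes a copper pump known from roots, rose from 5.36 ± 0.07 to 6.52 ± 0.18 (SD, n = 3 each), a 2.23-fold change (limma adjusted p = 2.85e-05). With reference gene centring 6 copper genes fell in place of 11, and 5 rose.

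Zinc transport genes were called about as often as other genes. Of 20 listed, 18 were measured and 13 passed the filter, with 4 called higher, 3 lower and 6 neither. These 7 of 13 are near the 60.4% called over all probe sets, and their median log2 change was -0.10, as over all probe sets tested. ZIP3 (AT2G32270), a gene of the zinc transporter family ZIP, was at 6.33, 6.57 and 6.33 in mock and at 4.43, 4.65 and 4.37 in H2O2, a 3.80-fold decrease (limma adjusted p = 1.68e-06). Its relative ZIP5 (AT1G05300) fell by 0.73. In the opposite direction, ZIP1 (AT3G12750) rose 1.86-fold (SE 0.07 log2) and ZIP11 (AT1G55910) 1.44-fold (SE 0.14 log2), a call lost without variance moderation (adjusted p = 0.0703).

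Of 8 genes for iron storage and for nicotianamine, a small metal chelator, all 8 passed the filter, and 4 rose and 2 fell, beside 23.9% and 36.5% of all probe sets tested. NAS2 (AT5G56080), a nicotianamine synthase gene, was at 4.48, 3.45 and 4.15 in mock and at 6.07, 6.09 and 5.87 in H2O2, a 3.95-fold rise (limma adjusted p = 0.000128) over widely spread mock values. NAS1 (AT5G04950) rose 1.88-fold. The ferritin genes FER1 (AT5G01600) and FER3 (AT3G56090), which encode iron stores of plastids, went opposite ways, with log2 changes of 0.58 and -0.46.

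The HIPP genes encode proteins with a heavy-metal-binding domain and a lipid anchor. Of 7 listed, 6 were measured and 5 passed the filter, of which 2 rose and 1 fell, a share called like the 60.4% of all probe sets tested. HIPP21 (AT5G17450) rose 3.21-fold from a low mock mean of 3.86 ± 0.14 (SD, n = 3), and HIPP22 (AT1G22990) fell by 0.45. HIPP25 (AT4G35060) rose by 0.46 (limma adjusted p = 0.0271), but with overlapping groups, and the call was lost without variance moderation (adjusted p = 0.118) and without mock replicate 2 or 3 or H2O2 replicate 1 or 2 (adjusted p = 0.0780 to 0.0918).

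**Figure D4:**
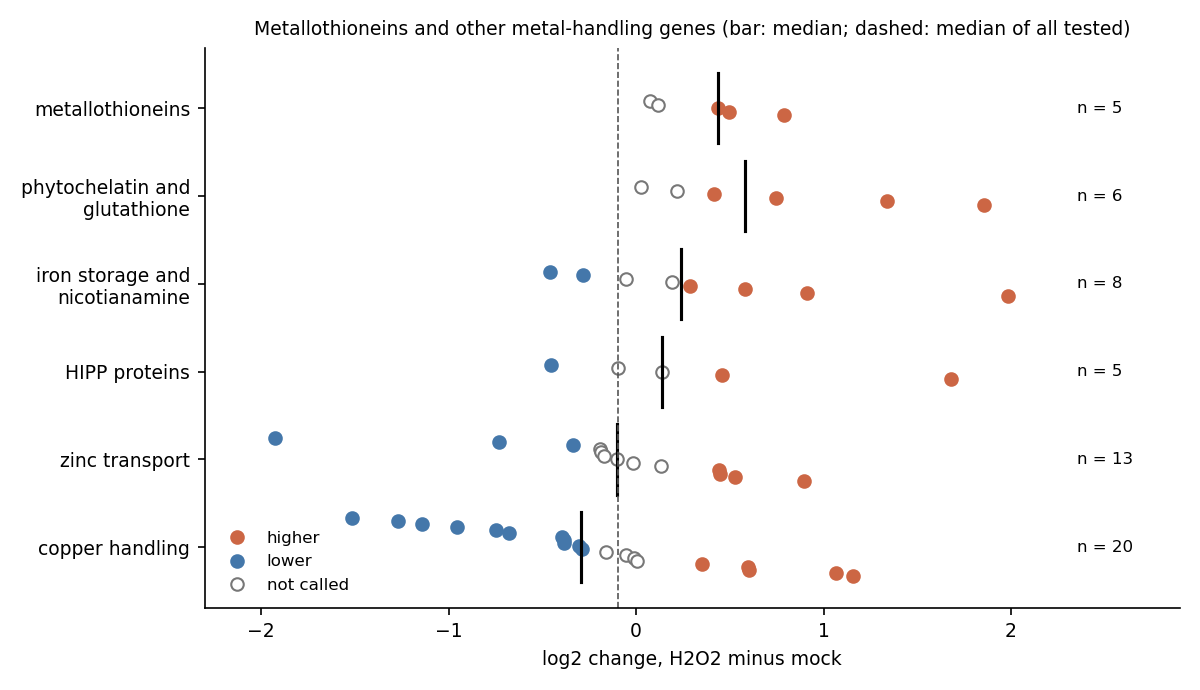
Log2 change (H2O2 minus mock) of the metallothioneins and of the genes of the other metal-handling lists that passed the filter on low values (points; orange called higher, blue called lower, open not called; bar, median of the list; dashed line, median of all probe sets tested, -0.10). Metallothioneins and the phytochelatin and glutathione genes have no member called lower, whereas 11 of 20 copper genes were.

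Marker genes of tissues in which metallothioneins are known to be expressed also moved with the treatment. The shares called over all probe sets, 23.9% higher and 36.5% lower, stand beside each of the following counts. Of 8 phloem marker genes, all measured, 7 passed the filter and 5 rose, with 0 lower. The mean level over the 8 was 6.31 to 6.36 on the mock arrays and 6.91 to 7.00 on the H2O2 arrays. That mean includes SULTR1;3, which did not pass the filter and had the largest log2 change of the 8, 1.67. SEOR1 (0.07) and GSL7 (-0.02) were not called, so the shift does not hold for all phloem markers. SUC2 (AT1G22710), the sucrose carrier gene of companion cells, was at 9.10, 9.09 and 9.26 in mock and at 10.01, 9.91 and 9.76 in H2O2, 1.67-fold higher (limma adjusted p = 0.000194).

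Of the 8 root markers, 6 were called lower and 0 higher. The mean level over the 8 was 7.09 to 7.14 on the mock arrays and 6.28 to 6.45 on the H2O2 arrays. The falls were uneven, with log2 changes of -2.08 for PRP3, -1.76 for XTH14, -0.80 for RHD2 and -0.78 for COBL9. CASP1 and MRN1 each changed by -0.30 (limma adjusted p = 0.0488 and 0.0345). The H2O2 mean of MRN1, 3.65, was under the level of the filter. PYK10 (-0.05) and CASP4 (0.16) were not called, so the shift does not hold for all root markers. The leaf markers were lower in 3 of 4 cases, with a mean level of 11.35 to 11.51 in mock and 11.04 to 11.28 in H2O2. Of 8 senescence markers, 7 passed the filter and 5 rose. Among these, SAG13 had a mock mean of 3.55, under the level of the filter, and passed only through its H2O2 mean of 6.58. The late senescence gene SAG12 was under the level of the filter, at 2.72 ± 0.16 and 2.79 ± 0.19 (SD, n = 3 each). The part of these shifts in the metallothionein changes was not tested, and in pooled tissue fewer cells of a type and less RNA per cell cannot be told apart.

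The genes with the profile most like that of each metallothionein were sought among the 14996 other probe sets tested, by the Euclidean distance between log2 profiles over the 6 arrays after each was centred on its own mean. With 2 groups such a likeness mostly reflects a change of the same size. For MT3 the nearest were SERAT2;2 (AT3G13110), a serine acetyltransferase gene of cysteine synthesis, at a distance of 0.11, and FH4 (AT1G24150) and ATL2 (AT3G16720) at 0.13. SERAT2;2 rose by 0.84 and MT3 by 0.79.

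For MT2A the nearest were AT4G37180 at 0.04 and ACL5 (AT5G19530), a thermospermine synthase gene, and AT4G34480 at 0.11. For MT2B they were AT1G29980 at 0.05, and AT1G18210 and ERD2 (AT1G29330) at 0.07. For MT1A and MT1C the nearest were genes that, like them, did not pass the test, led by AT5G46070 at 0.05 and AT5G66820 at 0.10. Within the family MT2A and MT2B were 0.21 apart and MT1A and MT1C 0.22, while MT3 lay 0.39 from MT2A and 0.97 from MT1C.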

How the data were processed

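Transcripts of 6 samples were measured on Affymetrix arrays. The authors deposited 1 table, in log2 GCRMA values per the labels' processing notes. That they are log2 follows from their range, 1.55 to 13.2. Of the chip, the GCRMA version and how probes were grouped, the sources used here say nothing. GCRMA normalizes between arrays, which removes overall differences in RNA content.

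Probe sets with a mean under the 30th percentile (3.79) were left out, which kept 15001 of 21430. The fit was limma 3.58.1 under R 4.3.3 (lmFit, then eBayes, no covariate), as H2O2 minus mock. Its p-values were Benjamini-Hochberg adjusted over all of these probe sets, and 0.05 was the threshold. It had 4 residual and 4.30 prior degrees of freedom. Differences between members were tested by exact permutation (scipy 1.17.1) and in an added limma fit. Figures used matplotlib 3.10.9. The limma script was tested on simulated data, where 46.3% of log2 changes of 0.5 were called, 88.1% of 1 and 98.5% of 2. It called 164 of 15001 simulated probe sets, 9 of them without a change. Far more, 9066, were called in the data, so the simulated setting differs from them.

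The members and lists were chosen with earlier results of these data known. Genes named were the family, up to 4 called members of each metal list with the largest changes, the 3 nearest profiles of each member, the genes beside or over a member, and markers. The promoter motif search that was planned was not run.

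The titles number replicates alike in both groups. Same-numbered arrays had deviations from their group means that correlated at 0.19, 0.21 and 0.21 over probe sets. All exceed 0.1, so the numbers were taken to pair the samples. Arrays of unlike number correlated at -0.17 to -0.04 across groups. The reported tests stayed unpaired, and a fit blocked on the numbers was an alternative. Differences between members were not fitted with that block. Other alternatives were the filter, raised low values, the scaling, the variance prior, array weights and each array left out.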

Additional observations from a re-analysis of the deposited data

How the results depend on the processing

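MT2A, MT2B and MT3 were higher and passed under all 16 alternatives, at log2 changes of 0.44 to 0.67, 0.41 to 0.61 and 0.75 to 0.96, the highest adjusted p being 0.0112, 0.00457 and 0.00343. A fit with the replicate block called 9424 probe sets in place of 9066 and changed no call of a metallothionein or of a named metal gene (MT3 adjusted p = 0.00038). MT1A passed with reference gene centring (0.29, limma adjusted p = 0.0216). Under quantile normalization it was -0.029, a value that follows from its rank at the top of the arrays. Without 1 array MT1A was 0.06 to 0.16. MT1C was -0.011 to 0.15 without 1 array. Probe sets called were 7054 to 9637. Of the 9066 reported 39.5% were higher, and of those called with reference gene centring 60.1%; of the 8 reference genes 3 were themselves called lower. The HIPP list had 1 call with the filter at the 50th percentile, which left 2 of its genes. The total calls of the copper, zinc, phytochelatin and iron lists were within 1.5 times the reported ones under all 16. By direction, however, the copper list had 6 lower calls in place of 11 with reference gene centring, and the iron list 1 in place of 2 under several. The zinc and iron lists each had 3 higher calls in place of 4 under several. With the filter at the 50th percentile the iron list had 2 higher calls. Of the 10 pairs of members 8 passed in the limma fit of their differences, in place of 0 by exact permutation, whose smallest p is 0.10. The variance prior of that limma fit came almost wholly from single probe sets, so its p-values may be too low for pairs of wide spread. Brightness near the top of the arrays may limit the folds of MT1A and MT2B, which was not tested.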
